A study of Mus musculus with 6 samples.

Results

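The C-type lectin domain family genes were taken from a gene table of whole mouse skin as every gene whose symbol starts with Clec, together with Cd207, Cd209a, Mgl2, Olr1 and Ly75, which gave 37 of 23951 genes. The rule used names and no measured value. RNA sequencing of poly(A) RNA, with libraries that keep the strand, was available for the skin of 3 control mice (genotype JunB +/+) and 3 JunBΔep mice (genotype JunB dep). All were C57Bl/6 mice aged 6 to 7 months. JunBΔep mice lack Junb, a subunit of the transcription factor AP-1, in cells that express keratin 5, because a Cre recombinase under the keratin 5 promoter deletes a floxed Junb allele there. Keratinocytes of the basal epidermis and hair follicle are the main cells of this kind, and the immune, endothelial and stromal cells of the skin keep Junb. The mice develop chronic skin inflammation, and the comparison asks how the inflamed skin of JunBΔep mice differs from that of controls. Both sexes were used in the study. Each library is named by the replicate number 0, 1 or 2 in its label.

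C-type lectin domains are compact protein folds, many of which bind sugars in the presence of calcium. On Langerhans cells, dendritic cells and macrophages, such receptors capture glycans of microbes and of the body's own proteins for uptake, and several of them, among them Dectin-1, Dectin-2 and Mincle, signal through the kinase Syk and the adaptor Card9 when they meet fungi or mycobacteria. Other members serve as ligands of receptors on natural killer cells, are secreted into the matrix or lie on endothelium and platelets. One member, Clec16a, carries the name of the family but acts in endosomes and mitophagy.

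Sequences before the start sites of 5 members are shown because the results turn on these genes. Of these, 3 are uptake receptors with lower mean values in JunBΔep skin (Cd207, Cd209a and Mgl2). The other 2, Clec4d and Clec4e, had the greatest excess of all members in the library labelled JunBΔep replicate 0. Each window holds 250 bases before the start site and 50 bases after it, from RefSeq on build GRCm38.p6, and is written 5′ to 3′ on the strand of the gene. A window was given for 30 of the 37 members, and none for Clec10a, Clec1a, Clec2f, Clec3a, Clec3b, Clec4a4 and Clec4n. Cd207 lies at chr6:83677808-83678107 on the minus strand, Cd209a at chr8:3748935-3749234 on the minus strand, Mgl2 at chr11:70130107-70130406 on the plus strand, Clec4d at chr6:123261857-123262156 on the plus strand and Clec4e at chr6:123289822-123290121 on the minus strand. Capitals mark matches to 4 motifs searched on both strands, AP-1 (TGANTCA), PU.1 (GAGGAA), NF-kB (GGG and CC with 5 free bases between) and C/EBP (TTGCNNAA), where N is any base.
Cd207: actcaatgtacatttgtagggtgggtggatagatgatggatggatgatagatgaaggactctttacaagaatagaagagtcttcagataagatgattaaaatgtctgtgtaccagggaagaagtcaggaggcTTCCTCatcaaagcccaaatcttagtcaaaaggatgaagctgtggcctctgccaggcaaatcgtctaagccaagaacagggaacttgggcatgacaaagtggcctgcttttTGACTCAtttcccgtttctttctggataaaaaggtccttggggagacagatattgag
Cd209a: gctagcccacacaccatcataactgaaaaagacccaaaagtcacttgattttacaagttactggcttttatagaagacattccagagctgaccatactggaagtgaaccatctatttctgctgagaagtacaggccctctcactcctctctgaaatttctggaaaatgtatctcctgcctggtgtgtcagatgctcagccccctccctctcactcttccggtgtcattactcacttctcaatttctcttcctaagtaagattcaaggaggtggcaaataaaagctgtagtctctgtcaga
Mgl2: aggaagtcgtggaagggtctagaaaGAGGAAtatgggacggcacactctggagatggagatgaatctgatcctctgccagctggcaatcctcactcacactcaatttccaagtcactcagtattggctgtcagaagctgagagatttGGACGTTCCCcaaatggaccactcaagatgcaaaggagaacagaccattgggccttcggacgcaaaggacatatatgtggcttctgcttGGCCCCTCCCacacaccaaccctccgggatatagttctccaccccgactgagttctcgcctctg
Clec4d: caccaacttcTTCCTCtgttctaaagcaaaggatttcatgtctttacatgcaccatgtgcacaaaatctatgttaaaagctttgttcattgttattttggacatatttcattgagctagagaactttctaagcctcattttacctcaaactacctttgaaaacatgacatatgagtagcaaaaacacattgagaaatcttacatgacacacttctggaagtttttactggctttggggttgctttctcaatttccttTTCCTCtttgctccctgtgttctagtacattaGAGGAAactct
Clec4e: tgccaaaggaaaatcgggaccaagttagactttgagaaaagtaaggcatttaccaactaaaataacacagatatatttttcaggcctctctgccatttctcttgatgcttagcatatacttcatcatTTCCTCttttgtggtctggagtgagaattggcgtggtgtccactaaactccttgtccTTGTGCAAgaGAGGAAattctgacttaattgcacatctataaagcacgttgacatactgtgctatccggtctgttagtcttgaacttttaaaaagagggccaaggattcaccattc

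The capitals in the Cd207 window are an AP-1 match, TGACTCA, whose first base lies 7 bases before the start site, and a PU.1 match read on the opposite strand. Mgl2 holds 1 PU.1 match and 2 NF-kB matches, Clec4d holds 3 PU.1 matches, and Clec4e holds 2 PU.1 matches and 1 C/EBP match. The window of Cd209a holds none of the 4 motifs, which says only that these letters are not in these bases. Over the 30 member windows, AP-1 matched in 8 (26.7%, against 7.93% of all 27025 windows), PU.1 in 17 (56.7% against 28.3%), C/EBP in 6 (20% against 10.8%) and NF-kB in 7 (23.3% against 50.4%). The choice of motifs followed a look at the values, no motif overlaps another in the windows shown, and a match describes letters and not a bound site. The AP-1 letters occurred in members with opposite patterns, such as Cd207 and Clec12a, with lower mean values in JunBΔep skin, and Olr1 and Clec2e, which had their highest value in one JunBΔep library.

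The values are FPKM, fragments scaled by transcript length and by the mapped fragments of the library, as the authors deposited them. They summed to 481078 to 630363 FPKM per library, the number of reads is unknown, and no counting interval can be given. Junb itself was at 59.3, 72.4 and 56.9 FPKM across control replicates 0, 1 and 2 and at 129.6, 42.8 and 28.0 FPKM over the libraries labelled JunBΔep replicates 0, 1 and 2, so the library labelled JunBΔep replicate 0 went against its label. From this gene a wrong label and a response of the tissue cannot be told apart. That library also stood apart in neutrophil markers, whose 11 tested genes summed to 25155 FPKM there and to 60.4 to 1588 FPKM in the other 5 libraries. S100a8 alone gave 24456 FPKM of it, and without S100a8 the sum was 698.5 FPKM there and 843 FPKM in control replicate 0, where S100a9 was at 698 FPKM. S100a9 was listed at 0 in the library labelled JunBΔep replicate 0. Without both genes the sum was 698.5 FPKM in that library and 39.2 to 145 FPKM elsewhere. Of the 11 genes, 9 were highest in that library (81.8%, against 29.7% of all genes). They include the neutrophil receptor Csf3r, at 44.3 FPKM against 0.561 to 3.7 FPKM elsewhere. The neutrophil receptor Cxcr2 was at 22.3 FPKM against 1.09 to 2.45 FPKM. Il1r2 went the other way, at 57.8 FPKM there and 61.8 to 92.4 FPKM across the controls. In JunBΔep replicates 1 and 2 the 11 genes summed to 60.4 and 214 FPKM, against 82.5 to 1588 FPKM across the controls. These markers thus set 1 library apart and did not separate the genotypes. The study reported more neutrophils in JunBΔep skin at later stages of disease. Whether the label of that library is right was not tested. Control replicate 0 stood apart in liver cell markers, with a sum of 1828 FPKM against 1.71 to 312 FPKM elsewhere. The skeletal muscle markers summed to 16876 to 21590 FPKM across the controls and 1639 to 3954 FPKM across JunBΔep libraries, and the library labelled JunBΔep replicate 0, at 1654 FPKM, lay below every control like the other JunBΔep libraries. The skin held its defining markers, with a keratinocyte list summing to 8056 to 13719 FPKM, although Krt14 was listed at 0 in the library labelled JunBΔep replicate 0 and at 837 to 1304 FPKM in the others. A value of 0 may be a failed estimate.

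In control skin 2 members carried most of the family's signal. Clec3b, which encodes tetranectin, a secreted plasminogen-binding protein of stroma and plasma, was at 212 ± 44.7 FPKM (SD, n = 3) and made up 41.8% of the summed FPKM of all members. Clec2d, a ligand of an inhibitory receptor on natural killer cells, was at 132 ± 44.7 FPKM and made up 26.0%. Next came the galactose and N-acetylgalactosamine receptors Clec10a (39.6 FPKM) and Mgl2 (38.2 FPKM), whose means differed by less than their spread. Cd209a followed at 19.7 FPKM, Cd207 at 11.3 FPKM and Clec4a1 at 9.0 FPKM. FPKM is a level per transcript length, so these levels may be set against each other. At least 5 FPKM was reached in a library by 17 members, and 10 stayed below 1 FPKM in all 6. Of the 36 members with a position on the mm9 annotation, 25 lie on chromosome 6, which holds the natural killer gene complex with the Dectin-1 and Dectin-2 clusters and also Cd207.

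**Figure D1:**
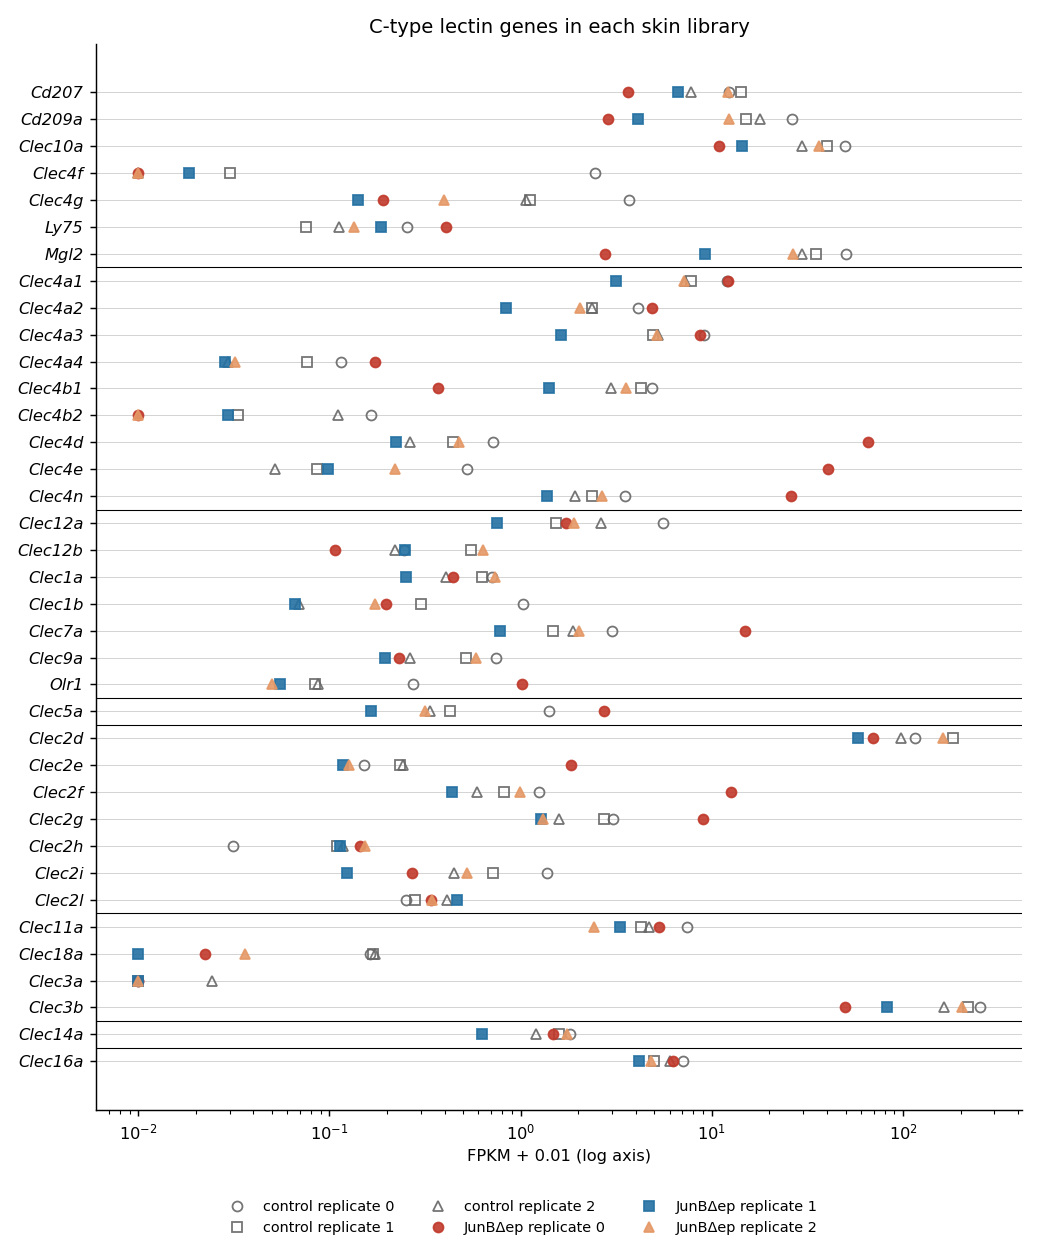
FPKM of all 37 members in each of the 6 skin libraries (x axis, FPKM + 0.01 on a log scale), with open grey symbols for control mice and filled coloured symbols for JunBΔep mice, and horizontal lines between groups of members with different roles. Clec3b and Clec2d lie farthest right in controls, and Clec4d, Clec4e, Clec4n, Clec7a and Clec2f have 1 point, from the library labelled JunBΔep replicate 0, far to the right of the other 5.

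The genotypes were compared on log2(FPKM + 0.5) with limma, across the 17021 genes whose mean over the 6 libraries reached 0.1 FPKM. On this scale the change of a low gene is understated. Of the 37 members, 33 passed the filter, and Clec3a, Clec4a4, Clec4b2 and Clec18a did not. None of the 33 was called lower or higher at an adjusted p of 0.05, and the lowest adjusted p was 0.286, for Clec4g. Over all genes tested, 1.38% were called lower and 0.0% higher, a count that dropped to 0 without any 1 of the controls or JunBΔep replicate 1. At an unadjusted p below 0.05 limma gave 3 members as lower, Cd209a, Mgl2 and Clec4g (9.09% of the 33, against 6.13% of all genes), and 0 as higher, against 1.43% of all genes. The same 3 members were those whose 3 JunBΔep values all lay below every control value, and 9.16% of all genes did so. This count of 3 depended on single libraries. It was 10 of 33 (30.3%, against 13.2% of all genes in the same comparison) without control replicate 2, 11 of 32 (34.4% against 13.1%) without JunBΔep replicate 0 and 10 of 32 (31.2% against 20.6%) without JunBΔep replicate 2. No member had all JunBΔep values above the controls, where 5.62% of all genes did, and there were 2 without control replicate 0 (6.25% against 7.72%) and 2 without control replicate 2 (6.06% against 12.5%). An exact permutation test of 3 mice against 3 cannot give a p below 0.1, so single genes were not tested that way.

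The median log2 fold change of the 33 tested members was -0.28, against 0.03 over all tested genes, and 21 of them (63.6%) had a negative sign, against 46.6% of all genes. These figures depend on single libraries. Against the control mean, the members had a median of 0.00, -0.70 and -0.14 in JunBΔep replicates 0, 1 and 2, while the controls themselves spanned -0.32 to 0.35. Without JunBΔep replicate 1, the median fold change was 0.01. In JunBΔep replicate 1, 19 of the 33 members had their lowest value of the 6 libraries (57.6%, against 17.6% of all genes). Its median lay below the control span, whereas those of replicates 0 and 2 lay inside it.

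**Figure D2:**
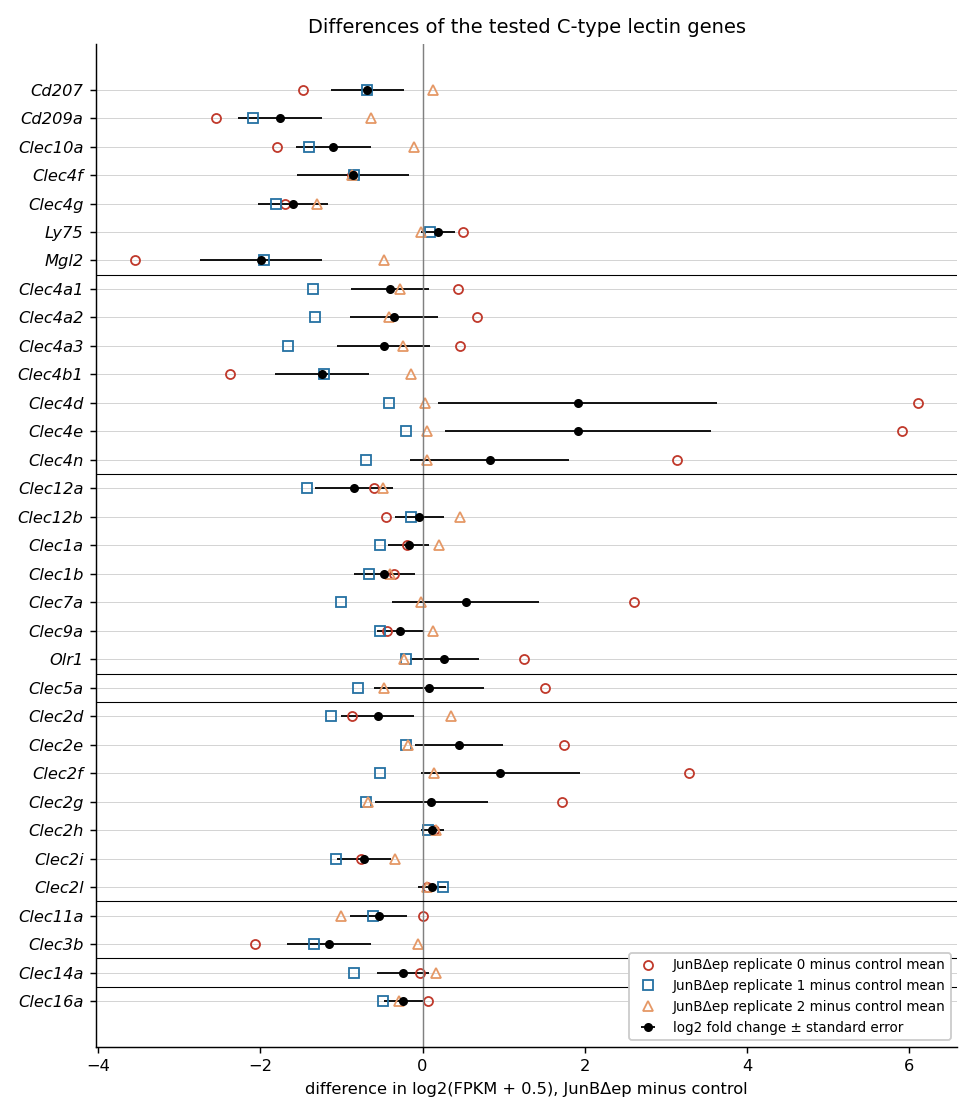
Difference between JunBΔep and control skin for the 33 tested members on the log2(FPKM + 0.5) scale (x axis). Black points with bars are the log2 fold change ± standard error from limma, coloured symbols are each JunBΔep library minus the control mean, and lines separate role groups. Clec4d and Clec4e lie farthest right in the library labelled JunBΔep replicate 0, while Clec4g lies left of 0 in all 3 JunBΔep libraries.

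The uptake receptors of dendritic cells and macrophages had lower mean values in JunBΔep skin for all but Ly75 of 7 genes, with a median log2 fold change of -1.10, and none passed the test. Cd209a, a mouse homologue of DC-SIGN that binds mannose-type glycans on dendritic cells (chromosome 8, 3743395 to 3748984 on mm9), was at 26.1, 15.1 and 17.8 FPKM across control replicates 0, 1 and 2 and at 2.86, 4.12 and 12.2 FPKM across JunBΔep replicates 0, 1 and 2. All JunBΔep values were below all control values, with JunBΔep replicate 2 nearest to the controls. The means were 19.7 ± 5.73 and 6.40 ± 5.09 FPKM (SD, n = 3 each), 3.08 times higher in controls, and the log2 fold change was -1.76 (standard error, SE, 0.52, limma adjusted p = 0.375). Without JunBΔep replicate 2, Cd209a was called, with a log2 fold change of -2.32 and an adjusted p of 0.045 from limma. It was the one named member whose call changed when a library was left out. In that fit 1 of 32 members was called, beside 254 of 16993 genes. Over all alternatives the adjusted p of Cd209a ran from 0.045 to 0.999. In a bulk library, fewer cells of a type and less RNA per cell cannot be told apart. Markers of other skin cells also varied. The 6 adipocyte markers, all lowest in JunBΔep replicate 0, had sums of 1279 to 3999 FPKM over the controls, against 60.2, 2258 and 9945 FPKM over JunBΔep replicates 0, 1 and 2. All 8 fibroblast markers had negative log2 fold changes. limma called 0 markers of either list, with 0 adipocyte and 1 fibroblast marker lower at an unadjusted p below 0.05. The skeletal muscle markers were also lower in JunBΔep skin, with a median log2 fold change of -3.17. All 9 were below every control in all 3 JunBΔep libraries, as were 9.16% of all genes. limma called 7 of the 9 lower, against 1.38% of all genes. Against the control mean their medians were -3.87, -3.46 and -2.24 in JunBΔep replicates 0, 1 and 2. Replicate 2 was nearest to the controls here too, but stayed below them. The receptor sum of replicate 2, 87.6 FPKM, lay inside the control range of 85.9 to 144 FPKM. The part of these cell types in the receptor values was not tested.

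Mgl2, which encodes CD301b, a galactose-type lectin of dermal dendritic cells (chromosome 11, 69943831 to 69951052), was at 50.1, 34.9 and 29.7 FPKM across the controls and at 2.75, 9.22 and 26.6 FPKM across JunBΔep replicates 0, 1 and 2. The groups did not overlap, but JunBΔep replicate 2 lay just under control replicate 2. Its means differed 2.97 times, with a log2 fold change of -1.99 (SE 0.75, limma adjusted p = 0.584). That value was -1.22 without JunBΔep replicate 0 and -2.75 without JunBΔep replicate 2. Its neighbour Clec10a, or CD301a, starts 29.1 kb downstream of its end (chromosome 11, 69980125 to 69984336) and was at 49.6, 39.8 and 29.5 FPKM across the controls and 10.9, 14.4 and 36.1 FPKM across JunBΔep skin. Here JunBΔep replicate 2 lay inside the control range, and the log2 fold change was -1.10 (SE 0.46, limma adjusted p = 0.677), at -0.75 and -1.59 without the same libraries. The 2 genes share sequence, as 14.3% of the 50-base stretches of Clec10a and 13.5% of those of Mgl2 occur in the other, so reads from these stretches may have been split between them.

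Cd207, which encodes langerin, the lectin that forms the Birbeck granules of Langerhans cells (chromosome 6, 83621201 to 83627851), was at 12.2, 14.1 and 7.75 FPKM across the controls and 3.65, 6.65 and 12.1 FPKM across JunBΔep replicates 0, 1 and 2. The groups overlapped, since JunBΔep replicate 2 was as high as control replicate 0. The log2 fold change was -0.68 (SE 0.45, limma adjusted p = 0.722), -0.28 without JunBΔep replicate 0 and -1.08 without JunBΔep replicate 2. Clec4g, or LSECtin, is known from liver and lymph node sinusoidal endothelium and lies 22.7 kb from Cd209a (chromosome 8, 3707064 to 3720651), where its span overlaps the predicted genes Gm16553 and Gm9814. It was at 3.67, 1.11 and 1.06 FPKM across the controls and at 0.181, 0.131 and 0.387 FPKM across JunBΔep skin, with no overlap. The log2 fold change was -1.60 (SE 0.43, limma adjusted p = 0.286). Control replicate 0, the library with the high liver cell markers, was also the highest for Clec4g, and without it the log2 fold change was -1.13 with the groups still apart.

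Clec4f, the galactose receptor of Kupffer cells of the liver, was at 2.44 FPKM in control replicate 0, at 0.0201 FPKM in control replicate 1, at 0.0084 FPKM in JunBΔep replicate 1 and was listed at 0 in the rest. Alb, the plasma protein of hepatocytes, moved with it in control replicate 0, at 823 FPKM against 0.263 to 18.8 FPKM elsewhere, and the part of liver RNA in the Clec4f value was not tested. Ly75, or DEC-205, an endocytic receptor of dendritic cells and thymic epithelium, stayed at 0.0652 to 0.398 FPKM in all libraries, with a log2 fold change of 0.19.

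**Figure D3:**
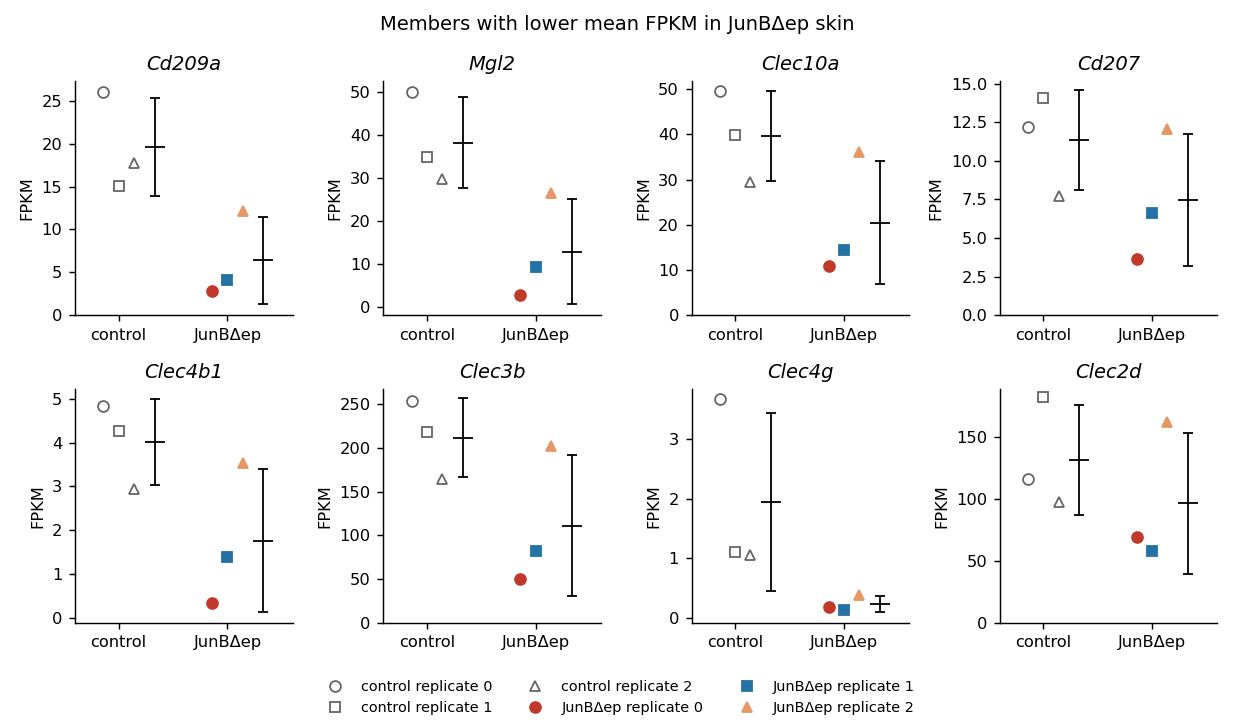
FPKM of 8 members with lower mean values in JunBΔep skin (y axis, linear), 1 point per mouse, with the mean ± SD of 3 mice beside the points of each group. Cd209a, Mgl2 and Clec4g have no overlap between groups, and in Clec10a, Cd207, Clec4b1, Clec3b and Clec2d JunBΔep replicate 2, the triangle, lies within the control range.

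Markers of dendritic cells and Langerhans cells moved with these receptors only in part. Of 20 tested markers, 6 were lower in every JunBΔep library than in any control (30.0%, against 9.16% of all genes) and 2 were higher in every one (10% against 5.62%). The median log2 fold change was -0.17, and 0 were called by limma, with 5 lower (25.0% against 6.13%) and 2 higher (10% against 1.43%) at an unadjusted p below 0.05. The 20 markers summed to 1823 to 2779 FPKM across the controls and to 820 to 1576 FPKM across JunBΔep libraries, and none was at 0 in any library. The 4 MHC class II genes H2-Ab1, H2-Aa, H2-Eb1 and Cd74 carried this sum. The other 16 markers summed to 192 to 228 FPKM across the controls and to 431, 258 and 197 FPKM across JunBΔep replicates 0, 1 and 2. Most of this second sum came from Cd24a and Epcam in every library. Cd24a alone gave 263 FPKM of it in JunBΔep replicate 0. Its level was 75.5 FPKM in replicate 1, 45.0 FPKM in replicate 2 and 65.7 to 97.9 FPKM over the controls. The higher sums thus do not describe the rest of the list. Among all 20 markers, 14 had a negative log2 fold change and 6 a positive one. H2-Ab1, a chain of the MHC class II molecule that presents antigen, was at 493, 433 and 302 FPKM across the controls and 113.5, 121 and 288 FPKM across JunBΔep replicates 0, 1 and 2. Its order over the libraries resembled that of Mgl2, with JunBΔep replicate 2 nearest to the controls. Epcam, an adhesion molecule of Langerhans cells and of hair follicle epithelium, lay the other way, at 49.4, 62.0 and 69.9 FPKM across the controls and 122, 119 and 90.4 FPKM across JunBΔep skin. The part of cell numbers in the receptor values was not tested.

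The Dectin-2 cluster split into members that were high in 1 library and members that were not. Clec4d, the receptor MCL (chromosome 6, 123212125 to 123225286), was at 0.708, 0.434 and 0.254 FPKM across the controls and at 65.1, 0.212 and 0.466 FPKM across JunBΔep replicates 0, 1 and 2. Clec4e, or Mincle, a receptor for mycobacterial cord factor and for products of damaged cells, lies 6.5 kb from Clec4d (chromosome 6, 123231807 to 123239889) and was at 0.512, 0.0765 and 0.0420 FPKM across the controls and 40.3, 0.0880 and 0.209 FPKM across JunBΔep skin. Thus both neighbours were high in the library labelled JunBΔep replicate 0 alone, at 91.9 times the next library for Clec4d and 78.8 times for Clec4e. For Clec4e the other 2 JunBΔep libraries lay within the control range, and for Clec4d replicate 2 did and replicate 1 lay just below it. Clec4d had a log2 fold change of 1.91 (SE 1.72, limma adjusted p = 0.725) and Clec4e one of 1.92 (SE 1.64, limma adjusted p = 0.723), and without that library these were -0.19 and -0.08.

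Clec4n, or Dectin-2 itself, which recognises fungal mannans, ends 15.1 kb before the start of Clec4d (chromosome 6, 123179861 to 123197039). It was at 3.49, 2.34 and 1.91 FPKM across the controls and 25.8, 1.36 and 2.64 FPKM across JunBΔep replicates 0, 1 and 2, 7.40 times the next library in replicate 0. Its log2 fold change was 0.83 with all libraries (limma adjusted p = 0.778) and -0.32 without replicate 0. The DCIR and DCAR genes of the same cluster, which include receptors with inhibitory tails, did not share this excess. Clec4a1 was at 12, 7.79 and 7.25 FPKM across the controls and 12.1, 3.13 and 7.17 FPKM across JunBΔep skin. Clec4a3 was at 9.03, 4.93 and 5.21 FPKM across the controls and 8.67, 1.61 and 5.12 FPKM across JunBΔep skin. Both were lowest in JunBΔep replicate 1 and near the highest control in replicate 0, and both had negative log2 fold changes, -0.40 and -0.48, which turned to 0.08 and 0.11 without JunBΔep replicate 1.

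Clec4a2, or DCIR, ranged from 0.831 FPKM in JunBΔep replicate 1 to 4.85 FPKM in replicate 0. Clec4b1, or DCAR, went the other way, at 4.83, 4.27 and 2.94 FPKM across the controls and 0.359, 1.40 and 3.54 FPKM across JunBΔep replicates 0, 1 and 2, lowest in the library where Clec4d was highest. Its log2 fold change was -1.24 (SE 0.58, limma adjusted p = 0.708). Shared 50-base stretches make up 8.68% of Clec4b1, 5.97% of Clec4a2 and 15.7% of Clec4a4, so the counting of these paralogs is uncertain. Clec4a4 reached at most 0.164 FPKM. Clec4b2, below the filter, was at 0.154, 0.0231 and 0.101 FPKM across the controls and 0, 0.0193 and 0 FPKM across JunBΔep skin, with no overlap. Summed over the 9 genes of the cluster, FPKM were 34.9, 22.3 and 20.1 in controls and 157, 8.67 and 21.2 in JunBΔep replicates 0, 1 and 2.

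Among the 7 Dectin-1 cluster genes and their neighbours, Clec7a showed the same pattern as Clec4n. Clec7a encodes Dectin-1, the receptor for fungal β-glucan (chromosome 6, 129411611 to 129422790), and was at 3.00, 1.47 and 1.86 FPKM across the controls and 14.8, 0.770 and 2.00 FPKM across JunBΔep replicates 0, 1 and 2. The library labelled JunBΔep replicate 0 was 4.93 times the next one, and the other 2 JunBΔep libraries lay below and inside the control range. The log2 fold change was 0.53 (SE 0.91, limma adjusted p = 0.844) and -0.51 without that library. Olr1, or LOX-1, the receptor for oxidised lipoprotein, was lower in level and also had its maximum there, at 1.01 FPKM in JunBΔep replicate 0 and at most 0.264 FPKM in the other libraries.

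The other genes of that cluster did not share the excess. Clec12a, an inhibitory receptor for uric acid crystals on myeloid cells, was at 5.56, 1.52 and 2.61 FPKM across the controls and 1.72, 0.744 and 1.90 FPKM across JunBΔep skin. The groups overlapped, and its log2 fold change was -0.84 (limma adjusted p = 0.722). Clec9a, a receptor of cross-presenting dendritic cells for exposed actin, lay between 0.185 and 0.733 FPKM. Clec1b, or CLEC-2, the podoplanin receptor of platelets, was at 1.02 FPKM in control replicate 0 and at 0.0563 to 0.290 FPKM elsewhere. Clec1a and Clec12b stayed below 1 FPKM. The annotated spans of Clec1a, Clec1b and Clec9a overlap each other, which leaves their low values uncertain. Clec5a, a separate myeloid receptor that signals through Tyrobp, was highest in JunBΔep replicate 0 at 2.71 FPKM, followed by control replicate 0 at 1.39 FPKM, and was at 0.155 to 0.419 FPKM in the other 4 libraries.

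**Figure D4:**
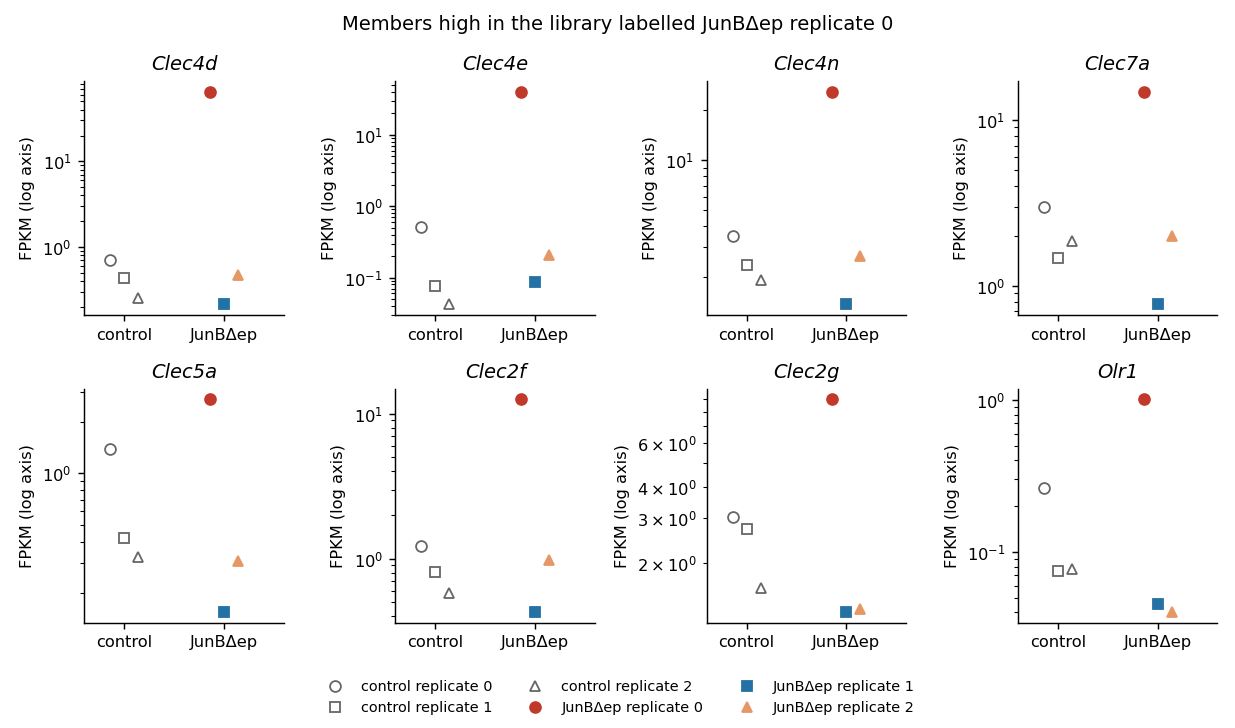
FPKM of 8 members with their maximum in the library labelled JunBΔep replicate 0 (y axis, log scale, with its own range in each panel), 1 point per mouse. The filled red circle of that library lies above the other 5 points in every panel, by 91.9 times for Clec4d and 2.94 times for Clec2g, and the other 2 JunBΔep libraries lie near or below the controls.

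The Clec2 genes, several of which encode ligands for the Nkrp1 receptors of natural killer cells, had no common direction. Of their 7 log2 fold changes 2 were negative, and the median was 0.12. Clec2d, the most abundant (chromosome 6, 129130633 to 129136552), was at 116, 182 and 97.5 FPKM across the controls and 69.4, 57.9 and 163 FPKM across JunBΔep replicates 0, 1 and 2. JunBΔep replicates 0 and 1 lay below all controls and replicate 2 inside their range, for a log2 fold change of -0.55 (SE 0.45, limma adjusted p = 0.722). Clec2f was highest in the library labelled JunBΔep replicate 0, at 1.23, 0.807 and 0.579 FPKM across the controls and 12.6, 0.429 and 0.981 FPKM across JunBΔep skin. Its log2 fold change of 0.96 (limma adjusted p = 0.745) was -0.20 without the library labelled JunBΔep replicate 0. Clec2g was at 3.04, 2.72 and 1.58 FPKM across the controls and 8.96, 1.27 and 1.30 FPKM across JunBΔep skin, and its log2 fold change of 0.11 was -0.69 without that library.

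Clec2e shared the pattern of Clec2f at a lower level, at 1.83 FPKM in JunBΔep replicate 0 and 0.107 to 0.233 FPKM elsewhere. Clec2i did not, at 1.37, 0.707 and 0.438 FPKM across the controls and 0.259, 0.113 and 0.515 FPKM across JunBΔep skin. Clec2h stayed under 0.15 FPKM and Clec2l under 0.5 FPKM. Between 1.98% and 5.43% of the 50-base stretches of Clec2d, Clec2g, Clec2h and Clec2i occur in another gene of the group, and Clec2f could not be placed on the annotation used, and the span of Clec2g overlaps other genes, so the split of reads among these paralogs is uncertain.

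Of the secreted members, Clec3b (chromosome 9, 123060064 to 123066548) was at 253, 218 and 164 FPKM across the controls and 49.5, 82.1 and 202 FPKM across JunBΔep replicates 0, 1 and 2. As with Clec2d, JunBΔep replicates 0 and 1 lay below all controls and replicate 2 inside their range. The log2 fold change was -1.15 (SE 0.52, limma adjusted p = 0.694). Clec11a, a growth factor of bone and blood-forming cells, was at 7.41, 4.26 and 4.67 FPKM across the controls and 5.29, 3.30 and 2.41 FPKM across JunBΔep skin, with overlap. Clec18a, a secreted protein of low level, was at 0.152, 0.159 and 0.163 FPKM across the controls and 0.0123, 0 and 0.0263 FPKM across JunBΔep skin and did not pass the filter. Its values did not overlap, and in the fit with no filter it was the 1 member called, with a log2 fold change of -0.36 (SE 0.04, limma adjusted p = 0.0325). Its small spread rests on values far below the pseudocount of 0.5. Clec3a, a cartilage protein, was at 0.0144 FPKM in control replicate 2 and was listed at 0 everywhere else.

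Clec14a, a receptor of vessel walls, ranged from 0.617 to 1.79 FPKM, and Clec16a was at 7.08, 4.96 and 6.06 FPKM across the controls and 6.27, 4.13 and 4.81 FPKM across JunBΔep skin. Both were lowest in JunBΔep replicate 1, and both had a log2 fold change of -0.24. Against the control mean, Clec14a was at -0.03, -0.84 and 0.16 in JunBΔep replicates 0, 1 and 2. Its negative value thus rested on replicate 1. Of the 10 endothelial markers, 7 were also lowest in that library.

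In the library labelled JunBΔep replicate 0, 12 of the 33 tested members had their highest value of the 6 libraries (36.4%, against 29.7% of all genes) and 7 their lowest (against 32.0% of all genes). A level at least 4-fold above the next library, both taken as FPKM + 0.5, was reached there by 5 members, Clec4d, Clec4e, Clec2f, Clec4n and Clec7a. That is 15.2% of the 33, against 1.83% of all genes, and the 4-fold limit was chosen after the values were seen. On this scale the 5 members stood 54.3, 40.4, 7.58, 6.60 and 4.37 times above the next library. Most neutrophil markers moved with them, as 9 of 11 had their highest value in the same library (81.8%, against 29.7% of all genes). Csf3r, the receptor for the neutrophil growth factor G-CSF, was at 44.3 FPKM there and 0.561 to 3.70 FPKM in the others. Mmp9 and Trem3 were at 36.8 and 5.14 FPKM there, against 20.3 and 3.56 FPKM in control replicate 0. Il1r2, at 57.8 FPKM, lay below every control. Of the 11 markers S100a9, Mmp8 and Trem3 were listed at 0 in some library, and S100a9 in this one. Macrophage and monocyte markers summed to 1287 FPKM in this library and 946 FPKM in control replicate 0, with 249.5 to 563 FPKM in the other 4. Lyz2 gave 557 FPKM of the sum in this library, and 9 of the 18 markers were highest there. Emr1, Csf1r, Cd163 and Folr2 were not, at 8.65, 29.5, 6.70 and 14.7 FPKM. In control replicate 0 these genes were at 13.3, 38.1, 13.3 and 48.3 FPKM. Stressed keratinocyte markers summed to 8580 FPKM there and 683 to 1454 FPKM elsewhere, although Krt6a, Krt6b and Krt16 of this list of 8 were listed at 0 in the same library. The part of neutrophils, macrophages or keratinocytes in the excess of the 5 members was not tested.

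The library labelled JunBΔep replicate 0 had the lowest sum of the uptake receptors and the highest sum of the Dectin-2 cluster, and the difference between these groups was not tested. Against the control mean, the uptake receptors had medians of -1.69, -1.40 and -0.48 in JunBΔep replicates 0, 1 and 2, and the Dectin-2 cluster had medians of 0.67, -1.22 and -0.14. The sums over the 7 uptake receptors were 144, 105 and 85.9 FPKM across the controls and 20.7, 34.7 and 87.6 FPKM across JunBΔep skin. JunBΔep replicate 1 was low in both groups of receptors, and replicate 2 was close to the controls in both.

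The sample titles fall into 2 number series whose meaning the labels do not give, the first with 2 controls and 1 JunBΔep mouse and the second with 1 control and 2 JunBΔep mice. Within the first series the log2 differences, JunBΔep minus control, were -2.60 for Cd209a, -3.70 for Mgl2, -1.71 for Cd207, -1.93 for Clec4g and 5.95 for Clec4d. Within the second they were -1.26, -0.90, 0.20, -1.06 and 0.14 in the same order. Cd209a, Mgl2 and Clec4g were lower in JunBΔep skin in both series, Cd207 in the first alone, and the excess of Clec4d lay in the first, whose JunBΔep mouse is replicate 0.

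Downstream of these receptors, 27 genes of C-type lectin receptor signalling were tested. None was called by limma, against 1.38% of all genes. At an unadjusted p below 0.05 there were 0, against 6.13% of all genes lower and 1.43% higher. A positive log2 fold change was found in 20 of the 27 and in 9097 of all 17021 genes. The median was 0.20, against 0.03 over all genes. Syk, the kinase recruited by Dectin-1 and by the adaptors of Dectin-2 and Mincle, was at 8.23, 4.82 and 5.98 FPKM across the controls and 14.2, 5.91 and 6.34 FPKM across JunBΔep replicates 0, 1 and 2. Fcer1g, the adaptor chain of Dectin-2 and Mincle, was at 70.6, 55.0 and 42.6 FPKM across the controls and 116.5, 18.5 and 47.6 FPKM across JunBΔep skin. Both had their maximum in the library labelled JunBΔep replicate 0, as had 18 of the 27 genes, where 29.7% of all genes had theirs. Tyrobp, the adaptor of Clec5a, was at 205 FPKM in that library and 16.5 to 83.6 FPKM in the others. Card9, which passes the signal from Syk to NF-kB, ranged from 2.00 FPKM in JunBΔep replicate 1 to 8.05 FPKM in replicate 0. The groups did not overlap in 1 signalling gene higher and 1 lower, 3.70% each, against 5.62% and 9.16% of all genes. Rela, a subunit of NF-kB, was the higher one, at 29.1, 31.5 and 26.9 FPKM across the controls and 45.0, 31.8 and 36.1 FPKM across JunBΔep skin, and Nfatc2 was the lower one, neither passing the test (limma adjusted p = 0.722 and 0.719).

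Of 35 tested genes that also carry a C-type lectin domain but not a member's name, 0 were called by limma, and 8 (22.9%) were lower at an unadjusted p below 0.05, against 6.13% of all genes. All JunBΔep values lay below all controls in 8 genes (22.9%, against 9.16%) and above them in 0 (against 5.62%), and 5 of these 8 were relatives of Cd209a. Cd209d was at 54.1, 38.6 and 34.1 FPKM across the controls and 5.88, 7.59 and 19.7 FPKM across JunBΔep replicates 0, 1 and 2, with JunBΔep replicate 2 the highest of its group as in Cd209a. Its log2 fold change was -2.05 (limma adjusted p = 0.160), and those of Cd209e, Cd209f and Cd209g were -2.19, -1.66 and -1.81. Cd209c, named after its values were seen, did not share this, at 10.3, 7.68 and 8.01 FPKM across the controls and 17.8, 6.64 and 9.80 FPKM across JunBΔep skin. The Cd209 genes lie side by side with Cd209a, and since Cd209f and Cd209g share 29.7% and 37.2% of their 50-base stretches with other genes, their values may not be independent, whereas Cd209a shares none. Cd248, or endosialin, of fibroblasts and pericytes, had the lowest adjusted p of the list, 0.0762 from limma, at 41.2, 30.0 and 33.7 FPKM across the controls and 19, 17.2 and 16.9 FPKM across JunBΔep skin. Mrc1, the macrophage mannose receptor, was at 18.6, 9.43 and 10.7 FPKM across the controls and 13.5, 4.06 and 8.37 FPKM across JunBΔep skin, with overlap and an adjusted p of 0.722 from limma.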

How the data were processed

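Whole skin of 3 control and 3 JunBΔep mice was analysed from 1 gene table. Per the labels, libraries came from poly(A) RNA with strand retained. The submitters' processing notes list FastQC, TopHat2 2.0.10, Bowtie 1.0.0, SAMtools 0.1.19, Cufflinks and build mm9, with no role given for Cufflinks, and the study's methods name the nextpresso pipeline. The FPKM values were used as the authors deposited them. What software made them and whether libraries were scaled further is not stated in the sources at hand. DESeq2 served as the test in the study, on counts of reads not used here.

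Values were transformed to log2(FPKM + 0.5) and fitted by limma 3.58.1 (R 4.3.3, intensity trend) over the 17021 genes whose mean reached 0.1 FPKM. Tests were two-sided, and p-values were adjusted by Benjamini-Hochberg with a cutoff of 0.05. The procedure was tested on simulated data, and the outcome is not given here. No read total is known. From ratios shared among genes below 0.15 FPKM, scaling totals were 0.955 to 1.14 times that of control replicate 0. Whether mice shared a litter or cage is not given, so p-values measure the spread between these 3 and 3 samples.

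Values in every library are given for members that were called, did not overlap between groups, or reached 5 FPKM, with others where a role group needed them. From the lists of signalling genes and other lectin genes, those called or without overlap were allowed, plus Syk, Card9, Fcer1g, Tyrobp and Mrc1, and any gene of the marker lists. Members and lists were chosen with earlier results of these data known. Alternatives were pseudocounts of 0.1 and 1, no filter, a mean of 1 FPKM, median-ratio and quantile scaling, limma without trend or robust, a block on the replicate number or the number series, an adjusted p of 0.1 and each library left out. Leaving out both libraries numbered 0 was added after seeing the data. Positions of genes follow GENCODE vM1 (mm9) and promoter windows follow RefSeq on GRCm38.p6. Tables and figures used Python 3.11.15, pandas 2.3.3 and matplotlib 3.10.9.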

Additional observations from a re-analysis of the deposited data

How the results depend on the processing

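Deviations from the group mean correlated between the genotypes at 0.12, -0.228 and -0.426 for replicate numbers 0, 1 and 2. Of the 3 JunBΔep libraries only replicate 0 correlated best with its own number. Deviations within a group of 3 are tied to each other, so these correlations cannot decide whether the numbers pair the mice. With the replicate number as a block, 0 members and 0 of all genes were called, against 0 and 235 without it, and the block on the number series also gave 0 genes. With single libraries left out, members called lower ranged from 0 to 1, members without overlap from 3 to 11 lower (9.38% to 34.4% of those tested, against 10.4% to 20.6% of all genes) and from 0 to 2 higher (0.0% to 6.25% against 7.72% to 19.4%), the median member fold change from -0.52 to 0.01, all genes called from 0 to 254, and other lectin genes called from 0 to 1. The highest counts of lower members without overlap, 10, 11 and 10, came without control replicate 2, JunBΔep replicate 0 and JunBΔep replicate 2, and the 1 other lectin gene was Cd209d, without JunBΔep replicate 2. All genes called were 0 without any 1 of the controls or JunBΔep replicate 1. They were 135 without JunBΔep replicate 0 and 254 of 16993 without JunBΔep replicate 2. With no filter, 1 member of 37 was called, Clec18a, against 166 of 20285 genes (0.818%), and 5 lower members did not overlap (13.5%, against 8.45% of all genes). With both libraries numbered 0 left out, 10 members were lower (32.3%, against 14.6% of all genes) and 2 higher (6.45% against 14.3%) without overlap, and 0 genes were called. At an adjusted p of 0.1, 2 other lectin genes were called, Cd209e and Cd248, against 327 of all genes (1.92%). For 18 named members under the 12 alternatives that move a fold change, 202 of 216 values kept the sign and 14 turned it. Without the library labelled JunBΔep replicate 0, Clec2f was at -0.20, Clec2g -0.69, Clec4d -0.19, Clec4e -0.08, Clec4n -0.32 and Clec7a -0.51 on the log2 scale, and with both libraries numbered 0 left out Clec2f was at -0.02, Clec2g -0.54, Clec4d -0.02, Clec4n -0.12 and Clec7a -0.27. Clec2g was at -0.12 without control replicate 2, and without JunBΔep replicate 1 Clec4a1 was at 0.08 and Clec4a3 at 0.11. Without single libraries, Clec2f ran from -0.20 to 1.71, Clec2g from -0.69 to 0.52, Clec4a1 from -0.82 to 0.08, Clec4a3 from -0.95 to 0.11, Clec4d from -0.19 to 3.07, Clec4e from -0.08 to 2.98, Clec4n from -0.32 to 1.59 and Clec7a from -0.51 to 1.29. Of members that kept their sign, Clec3b ran from -1.70 to -0.69, Clec2d from -1.0 to -0.26, Clec12a from -1.21 to -0.41, Clec11a from -0.80 to -0.31 and Clec16a from -0.39 to -0.11. The cause of the lost calls was not tested. The number of mice limits the precision, and groups of 3 were not tested for outlying values.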
